A study of Mus musculus with 2 samples.

Results

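The respiratory chain and ATP synthase were described here as 101 genes of the 35272 gene symbols in a pair of mouse liver libraries. Members were taken by symbol: the families of complex I (Ndufa, Ndufb, Ndufc, Ndufs, Ndufv), complex II (Sdha to Sdhd), complex III (Uqcr and Cyc1), complex IV (Cox4i, Cox5, Cox6, Cox7, Cox8), the ATP synthase (Atp5), cytochrome c (Cycs) and the 13 protein genes of mitochondrial DNA. Assembly factors and the muscle-type forms Cox6a2, Cox7a1 and Cox8b were left out of the list, and 4 of the 101 are annotated as pseudogenes. Nuclear DNA holds 88 of the members.

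The libraries came from livers of C57BL/6 mice aged 10 months, 1 labelled LTsc1KO with the genotype TSC1-/- and 1 labelled WT (wild type). The study's design text names a liver-restricted loss of Tsc1, an inhibitor of the growth-promoting kinase complex mTORC1, as a mouse model of liver cancer, and speaks of tumour tissue. The labels give the tissue as liver and do not say whether the LTsc1KO piece was tumour or the liver around it, and the promoter that drives the recombinase was not given in the sources used here. Because each genotype has a single library, no difference below was tested against replicates, and intervals cover counting error in reads only.

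The respiratory chain sits in the inner mitochondrial membrane. Complexes I and II pass electrons from NADH and succinate to coenzyme Q, complex III passes them to cytochrome c, and complex IV hands them to oxygen. The proton gradient built on the way drives the ATP synthase. Most subunits are made in the cytosol from nuclear genes and imported, while the catalytic core of complexes I, III and IV and the proton channel of the ATP synthase are completed by proteins made inside mitochondria. Hepatocytes are rich in mitochondria, and their respiration supports gluconeogenesis, urea synthesis and fatty acid oxidation.

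Values are FPKM, reads scaled by transcript length and library total. For many genes the length fitted a mean over annotated transcripts, so FPKM of different genes are not strictly comparable. Totals of 29351163 reads (LTsc1KO) and 27919645 reads (WT) were recovered from the values. Tsc1 itself was at 4.79 FPKM in the library labelled LTsc1KO and 4.90 FPKM in the library labelled WT, a ratio of 0.976 (95% exact binomial interval 0.868 to 1.10). A gene-wide value can include reads outside a deleted part, so it does not check the labels, and every direction below rests on them. Hepatocyte markers were high in both libraries, with summed levels of 26331.5 FPKM (LTsc1KO) and 43239.9 FPKM (WT) over 8 genes, 6 lower and 2 higher in LTsc1KO. The libraries stood apart in several other cell types too. All 14 skeletal muscle markers were lower in the LTsc1KO library, summing to 4.05 FPKM there with 5 of them at 0, against 3865 FPKM in the WT library. Proliferation markers summed to 188 FPKM (LTsc1KO) and 2.22 FPKM (WT), and bile duct markers to 592 FPKM (LTsc1KO) and 41.6 FPKM (WT), or 17.2 FPKM (LTsc1KO) and 4.66 FPKM (WT) without Spp1. Erythroid markers summed to 57.5 FPKM (LTsc1KO) and 608 FPKM (WT), and neutrophil markers to 62.2 FPKM (LTsc1KO) and 127 FPKM (WT). Kupffer cell markers had close sums, 27.4 FPKM (LTsc1KO) and 30.7 FPKM (WT), but 3 were lower and 3 higher in LTsc1KO. Among them Marco was at 0.505 FPKM (LTsc1KO) and 3.37 FPKM (WT), and Csf1r at 4.59 FPKM (LTsc1KO) and 1.94 FPKM (WT). Endothelial markers summed to 31.9 FPKM (LTsc1KO) and 17.0 FPKM (WT), with 3 lower and 2 higher in LTsc1KO. Most of that sum was Stab2, at 28.3 FPKM (LTsc1KO) and 13.2 FPKM (WT). Stellate cell markers summed to 10.2 FPKM (LTsc1KO) and 180 FPKM (WT), of which Des, also a muscle marker, was 0.462 FPKM (LTsc1KO) and 152 FPKM (WT). The part of these other cells in the members' values was not tested. In bulk tissue, fewer cells of a type and less RNA per cell cannot be told apart.

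On the deposited scale most of these genes were within 2-fold in the 2 libraries, while most other genes were higher in LTsc1KO. Ratios are log2 of LTsc1KO over WT after 1 FPKM was added to each value, and a gene was counted as expressed at 1 FPKM or more in at least 1 library. By that filter 95 of the 101 members were expressed, 93 of them in both libraries. The median log2 ratio of the 95 was 0.06, against 0.70 for the 12395 expressed genes of the table. Log2 ratios were below the all-gene median for 88 of the 95 members (92.6%), where the share over all expressed genes is 50% by construction, and below 0 for 44 of them (46.3%), where it is 22% over all expressed genes. With the median ratio of genes set to 0, the members' median was -0.63, against 0.07 for all expressed genes.

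Few members crossed a 2-fold limit. Cycs, Atp5b and mt-Nd5 were at least 2-fold higher in LTsc1KO, 3 members beside a background of 35.6% of expressed genes. Uqcrh, Cox6b1, mt-Co2, mt-Atp6 and mt-Nd3 were at least 2-fold lower, 5 members beside a background of 6.15%. The other 87 expressed members lay within 2-fold. In either direction 8.42% of the members passed the limit, against 41.7% of expressed genes. These counts depend on the scale of the 2 libraries: with the median ratio of genes set to 0, the higher side held 1 member (background 15.6%) and the lower side 21 members (background 12.7%).

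High abundance accompanied this pattern. Highly abundant genes as a whole had lower ratios than the rest, and most members are highly abundant. The 81 members at 50 FPKM or more in both libraries had a median log2 ratio of 0.06, against 0.20 for all 1358 genes at that level. Of the 81 members 93.8% were below the all-gene median, against 75.1% of the 1358 genes. A 2-fold limit in either direction was passed by 7.41% of the 81 members, against 23.2% of the 1358 genes. At geometric means from 50 to 200 FPKM the median was 0.08 for 37 members and 0.46 for 1278 genes. Above 200 FPKM the medians were close, at 0.03 for 46 members and -0.05 for all 485 genes, the members among them. The members still differed there in other ways. Past 2-fold in either direction were 10.9% of the 46, against 32.4% of the 485. Below the all-gene median lay 93.5% of the 46, against 77.9% of the 485.

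**Figure D1:**
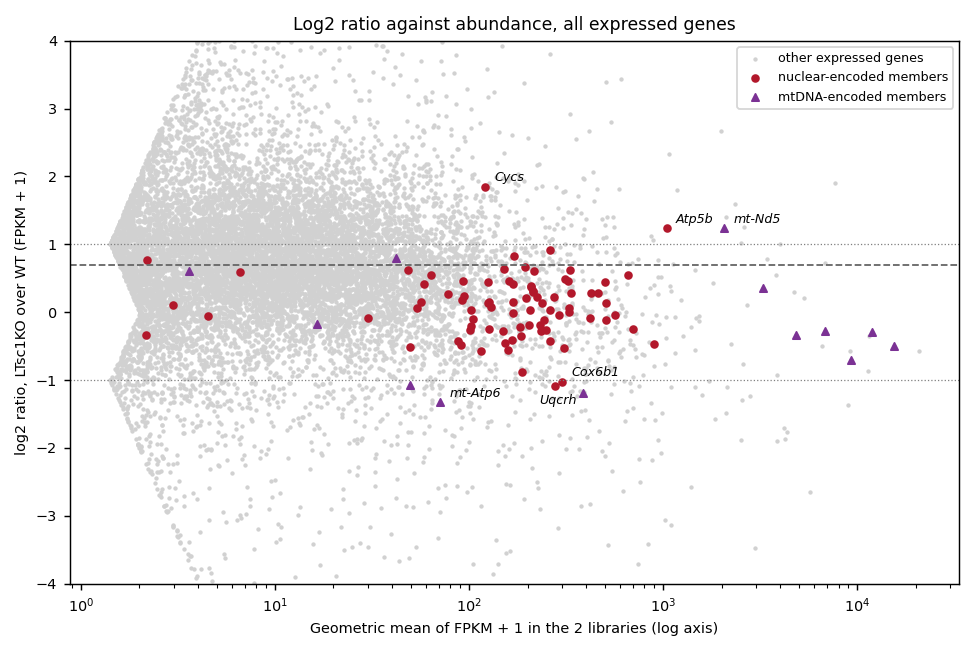
Log2 ratio (LTsc1KO over WT, FPKM + 1) against the geometric mean of both libraries, 1 point per expressed gene; the dashed line is the median of all expressed genes (0.70), the dotted lines are 2-fold, and 198 genes lie outside the drawn range. Nuclear-encoded members (circles) gather near 0 at high abundance, and mitochondrially encoded members (triangles) spread from -1.32 to 1.24. Cycs, Atp5b and mt-Nd5 lie above the upper dotted line.

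Cytochrome c, the soluble protein that carries electrons between complexes III and IV, had the highest ratio of all members. Cycs (ENSMUSG00000063694, chr6:50562563-50566538 on GRCm38, minus strand) was at 228 FPKM in LTsc1KO and 62.7 FPKM in WT, from 12498 reads (LTsc1KO) and 3265 reads (WT). The ratio of FPKM was 3.64 (95% exact binomial interval 3.50 to 3.79), and its log2 ratio was 1.85 as deposited and 1.14 with the median ratio set to 0. In 28.4% of its 36-base windows Cycs matched other annotated genes, chiefly Gm10053, which itself was at 3.02 FPKM (LTsc1KO) and 0.906 FPKM (WT). The level at that copy was small beside that of Cycs in each library.

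The promoters of the nuclear members with the highest and the lowest log2 ratio, Cycs and Uqcrh, are shown with a promoter that holds a whole NRF1 motif, that of Cox6a1. Each run is the 250 bases before the gene's start in RefSeq on GRCm38.p6, read 5′ to 3′ on the gene's strand. They span chr6:50566570-50566819 (minus strand), chr4:116075071-116075320 (minus strand) and chr5:115348959-115349208 (minus strand). Capitals mark the match to the NRF1 core GCATGCGC in Cycs, to GABPA (CCGGAAGT, here on the other strand) in Uqcrh, and to the whole NRF1 motif in Cox6a1, which is the core with GC before it.
Cycs promoter: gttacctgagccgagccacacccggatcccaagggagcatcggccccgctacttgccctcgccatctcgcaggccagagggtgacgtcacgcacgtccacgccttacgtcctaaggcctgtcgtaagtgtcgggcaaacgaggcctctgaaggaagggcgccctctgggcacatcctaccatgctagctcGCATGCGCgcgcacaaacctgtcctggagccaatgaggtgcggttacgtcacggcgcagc
Uqcrh promoter: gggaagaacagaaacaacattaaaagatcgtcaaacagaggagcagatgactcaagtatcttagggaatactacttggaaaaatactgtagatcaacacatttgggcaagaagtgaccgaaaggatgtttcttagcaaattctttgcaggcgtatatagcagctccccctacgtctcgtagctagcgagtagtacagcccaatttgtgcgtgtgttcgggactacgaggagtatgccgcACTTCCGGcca
Cox6a1 promoter: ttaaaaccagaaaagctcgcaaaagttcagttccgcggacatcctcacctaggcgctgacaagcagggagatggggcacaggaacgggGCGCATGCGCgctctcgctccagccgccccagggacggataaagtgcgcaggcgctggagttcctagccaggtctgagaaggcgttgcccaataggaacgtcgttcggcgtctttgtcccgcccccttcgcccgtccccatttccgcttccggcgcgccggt

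Nuclear respiratory factor 1 (NRF1), GABPA (also named nuclear respiratory factor 2), YY1 and the estrogen-related receptor ESRRA are transcription factors known to act on respiratory genes. Their motifs were sought on both strands in windows from 250 bases before to 50 bases after the start, which 65 of the 81 members looked for had in the RefSeq table. The members looked for were all expressed, while the 27025 genes with a window were not filtered by expression, so the 2 sets are unlike. The whole NRF1 motif was in 5 of the 65 (7.69%), against 1.07% of all 27025 genes. GABPA (CCGGAAGT) was in 5 (7.69%), against 4.31% of all genes. YY1 (AAGATGGC) was in 9 (13.8%), against 3.19%, and ESRRA (TCAAGGTCA) in 2 (3.08%), against 0.466%. The inner NRF1 core GCATGCGC, searched after the first results were seen and contained in the full motif, was in 11 (16.9%), against 3.05%. The Atp5b window held none of the 5. A match describes letters in a window and is not a site.

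Those factors and coactivators were themselves measured. The 10 regulators had a median log2 ratio of 0.64, near the 0.70 of all genes. On that FPKM + 1 scale 1 of them was at least 2-fold higher, beside a background of 35.6%. Without the added 1, the ratios of Ppargc1a (2.24), Ppargc1b (2.03) and Hcfc1 (2.02) also passed 2, a scale for which no background was computed. Ppara, the receptor that drives fatty acid oxidation genes in liver, was at 44.5 FPKM in LTsc1KO and 11.9 FPKM in WT (log2 ratio 1.82). Ppargc1a, a coactivator of mitochondrial biogenesis, was at 6.96 FPKM (LTsc1KO) and 3.11 FPKM (WT), a log2 ratio of 0.95. Nrf1 (0.53) and Esrra (0.52) had the lowest log2 ratios of the list.

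Complex I, the NADH dehydrogenase and the largest of the complexes, had 44 expressed members with a median log2 ratio of 0.07. None of its 37 expressed nuclear members passed 2-fold in either direction. The 7 nuclear core subunits had a median of 0.26 and the 29 accessory subunits, which surround the core, a median of 0.08.

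Within the core, subunits that lie side by side in the enzyme had ratios on both sides of 0. Ndufv1, which binds NADH and the flavin, was at 244 FPKM in LTsc1KO and 153.9 FPKM in WT, a ratio of 1.59 (interval 1.52 to 1.65). Ndufs1, the large iron-sulfur subunit next to it, was at 66.4 FPKM (LTsc1KO) and 49.4 FPKM (WT), a ratio of 1.35. Their partner Ndufv2 was lower, at 115 FPKM (LTsc1KO) and 137 FPKM (WT), a ratio of 0.840. In the arm that binds coenzyme Q, Ndufs8, an iron-sulfur subunit, was at 84.3 FPKM (LTsc1KO) and 70.2 FPKM (WT). Other subunits of that arm lay below 0. Ndufs7, which carries the last iron-sulfur cluster, was at 162 FPKM (LTsc1KO) and 207 FPKM (WT). Ndufs3, a core subunit without a cluster, was at 131 FPKM (LTsc1KO) and 192 FPKM (WT), the lowest ratio of the nuclear core at 0.681 (interval 0.648 to 0.716).

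Among the accessory subunits the extremes were Ndufa6 and Ndufa3. Ndufa6, which docks an acyl carrier protein on the complex, was at 356 FPKM in LTsc1KO and 188 FPKM in WT, a ratio of 1.89 (interval 1.81 to 1.98). Ndufb6, a membrane-arm subunit, followed at 59.1 FPKM (LTsc1KO) and 38.0 FPKM (WT). At the low end, Ndufa3 was at 137 FPKM (LTsc1KO) and 255 FPKM (WT), a ratio of 0.539 (interval 0.507 to 0.573). Ndufb7, on the intermembrane space side of the membrane arm, was at 40.6 FPKM (LTsc1KO) and 58.6 FPKM (WT). Ndufb2 stood apart by its FPKM, at 2.07 FPKM (LTsc1KO) and 1.86 FPKM (WT), where the other accessory subunits were all above 28 FPKM in both libraries. It had 76 reads (LTsc1KO) and 65 reads (WT) at a length of 1250 bases. Whether its low value comes from the transcript or from the counting was not tested. Of the 3 annotated pseudogene copies, Ndufb4c was at 3.41 FPKM (LTsc1KO) and 3.58 FPKM (WT), with 100% of its windows also in Ndufb4, and Ndufa11b and Ndufs6b were listed at 0 in both.

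**Figure D2:**
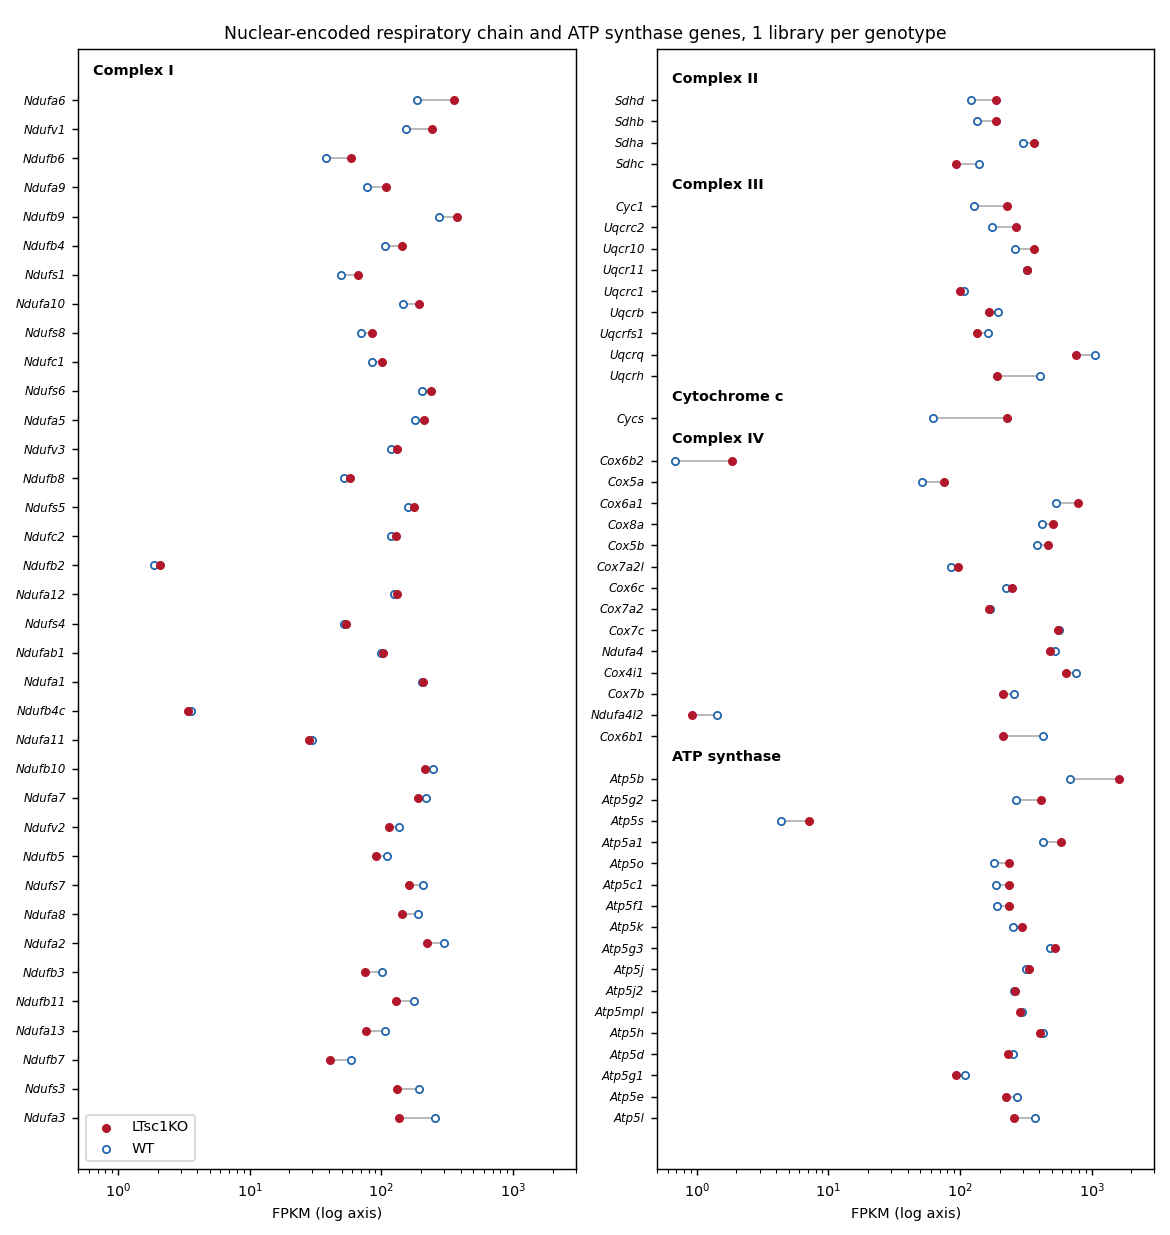
FPKM (log axis) of 81 of the 82 expressed nuclear members in the LTsc1KO library (filled) and the WT library (open), by complex and in order of ratio; a line joins the values of a gene. Most pairs nearly coincide, the widest gap is that of Cycs (228 FPKM in LTsc1KO and 62.7 FPKM in WT), and Ndufb2, Ndufb4c, Cox6b2, Ndufa4l2 and Atp5s lie far to the left.

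Complex II, the succinate dehydrogenase that also serves the citric acid cycle, had the highest median of the multi-subunit complexes, 0.37 over 4 genes. Sdha, the flavoprotein, was at 367 FPKM in LTsc1KO and 302 FPKM in WT. Sdhb, the iron-sulfur subunit, was at 186 FPKM (LTsc1KO) and 135 FPKM (WT). The membrane anchors differed in direction. Sdhd was at 188 FPKM (LTsc1KO) and 121 FPKM (WT), a ratio of 1.56, and Sdhc at 93.8 FPKM (LTsc1KO) and 139.8 FPKM (WT), a ratio of 0.671 (interval 0.644 to 0.699).

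Complex III, the cytochrome bc1 complex, had the lowest median, -0.16 over 10 genes, with 7 of the 10 below 0. Its small subunits held the lowest value: Uqcrh, the acidic hinge protein that helps cytochrome c1 bind cytochrome c, was at 190 FPKM in LTsc1KO and 405 FPKM in WT, from 3061 reads (LTsc1KO) and 6212 reads (WT). The ratio was 0.469 (interval 0.449 to 0.490). Uqcrh lies at chr4:116066965-116075071 on GRCm38, minus strand. Uqcrq, the most abundant nuclear subunit of the complex, was at 762 FPKM (LTsc1KO) and 1059 FPKM (WT). Cyc1, the cytochrome c1 that Uqcrh assists, went the other way, at 227 FPKM (LTsc1KO) and 127 FPKM (WT), a ratio of 1.79 (interval 1.71 to 1.87). Uqcrfs1, the Rieske iron-sulfur protein, was at 135 FPKM (LTsc1KO) and 163 FPKM (WT). The core proteins, which face the matrix, were split: Uqcrc1 was at 100.3 FPKM (LTsc1KO) and 108 FPKM (WT), and Uqcrc2 at 265 FPKM (LTsc1KO) and 174 FPKM (WT). Uqcr10 was at 367 FPKM (LTsc1KO) and 263 FPKM (WT), and Uqcr11 differed least, at 324 FPKM (LTsc1KO) and 325 FPKM (WT).

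Complex IV, cytochrome c oxidase, had 17 expressed members with a median of -0.04, and the 14 nuclear ones a median of 0.07. Cox6b1, a subunit on the side where cytochrome c binds, was the only nuclear one past 2-fold on the log2(FPKM + 1) scale, at 211 FPKM in LTsc1KO and 429 FPKM in WT. Its ratio was 0.491 (interval 0.470 to 0.513). The gene lies at chr7:30616861-30626151 on GRCm38, minus strand. Among the early-assembling subunits, Cox4i1 was at 638 FPKM (LTsc1KO) and 761 FPKM (WT), and Cox5a at 75.9 FPKM (LTsc1KO) and 51.5 FPKM (WT). Cox5b was at 469 FPKM (LTsc1KO) and 387 FPKM (WT). Cox6a1 had the highest FPKM of the nuclear subunits in LTsc1KO, at 789 FPKM there and 541 FPKM in WT, a ratio of 1.46. Cox7b was at 212 FPKM (LTsc1KO) and 258 FPKM (WT), and Ndufa4, named as a complex I subunit but now assigned to complex IV, at 485 FPKM (LTsc1KO) and 525 FPKM (WT).

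Alternative forms of complex IV subunits are expressed in other tissues or conditions, and here the common liver forms dominated in both libraries. Cox4i2, a form known from lung, was at 0.233 FPKM (LTsc1KO) and 0.343 FPKM (WT), far under Cox4i1. Cox6b2, a testis form, was at 1.87 FPKM (LTsc1KO) from 26 reads and 0.680 FPKM (WT) from 9 reads, a ratio of 2.75 with a wide interval (1.25 to 6.67). Its log2 ratio was 0.77 with the pseudocount of 1 and 1.34 with 0.1, past the 2-fold limit. The hypoxia-linked Ndufa4l2 was at 0.923 FPKM (LTsc1KO) and 1.42 FPKM (WT), a ratio of 0.651 whose interval includes 1 (0.379 to 1.10). Cox7b2, Cox8c and the pseudogene Cox6c2 were listed at 0 in both libraries. Cox8a, the common form of subunit 8, was at 508 FPKM (LTsc1KO) and 416.5 FPKM (WT), and Cox7a2 at 167 FPKM (LTsc1KO) and 168 FPKM (WT). Cox7a2l, known as a supercomplex factor, was at 97.1 FPKM (LTsc1KO) and 85.3 FPKM (WT). Whether it acts as one in these mice was not tested.

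The muscle-type forms left out of the list had lower ratios than any member. Cox6a2 was at 3.62 FPKM in LTsc1KO and 102 FPKM in WT, Cox8b at 7.44 FPKM (LTsc1KO) and 88.2 FPKM (WT), and Cox7a1 at 7.58 FPKM (LTsc1KO) and 56.9 FPKM (WT). These are the forms of heart and skeletal muscle, and Cox8b is also abundant in brown fat. They moved with the skeletal muscle markers, of which Acta1 was at 0.119 FPKM (LTsc1KO) and 875 FPKM (WT). Cardiac markers were near 0 in LTsc1KO and low in WT, with sums of 0.645 FPKM (LTsc1KO) and 5.24 FPKM (WT), and the brown fat marker Ucp1 was at 0.0207 FPKM (LTsc1KO) and 0 (WT). Muscle also expresses the common subunits, and the part of these transcripts in the members' ratios was not tested.

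The ATP synthase had 19 members, all expressed, with a median of 0.14. Atp5b, the beta subunit that forms ATP, was the most abundant nuclear member in LTsc1KO, at 1604 FPKM there and 679.7 FPKM in WT, from 41201 reads (LTsc1KO) and 16605 reads (WT). The ratio was 2.36 (interval 2.32 to 2.40), and the gene lies at chr10:128083273-128090391 on GRCm38, plus strand. The log2 ratio of 1.24 was 0.52 with the median ratio set to 0. Its partners in the F1 head were closer together: the alpha subunit Atp5a1 was at 584 FPKM (LTsc1KO) and 429 FPKM (WT), a ratio of 1.36, and the gamma subunit Atp5c1 at 236 FPKM (LTsc1KO) and 189 FPKM (WT), a ratio of 1.25. The epsilon subunit Atp5e was below, at 225 FPKM (LTsc1KO) and 271 FPKM (WT). The alpha and beta chains alternate in equal number in the enzyme. Their FPKM rest on unlike lengths, 1500 bases (Atp5a1) and 875 bases (Atp5b), so the 2 levels are not directly comparable. By reads Atp5a1 was at 25718 (LTsc1KO) and 17949 (WT), under Atp5b in LTsc1KO and above it in WT.

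The proton-driven rotor of the enzyme is a ring of c subunits, for which Atp5g1, Atp5g2 and Atp5g3 encode the same mature protein. Atp5g3 had the highest FPKM of them, at 528 FPKM in LTsc1KO and 480 FPKM in WT. Atp5g2 was at 410 FPKM (LTsc1KO) and 266.5 FPKM (WT), a ratio of 1.54 (interval 1.49 to 1.60), with 39.7% of its windows also in other genes, chiefly Gm10175. Atp5g1 was at 94.1 FPKM (LTsc1KO) and 109 FPKM (WT), over a longer length of 2666 bases. Its reads were 7361 (LTsc1KO) and 8080 (WT), against 7710 (LTsc1KO) and 4762 (WT) for Atp5g2. The 4 peripheral stalk genes had a median of 0.18 and the 4 nuclear membrane genes a median of -0.01. Atp5l, a small subunit of the membrane part, was the lowest nuclear gene of the enzyme, at 255 FPKM (LTsc1KO) and 370 FPKM (WT). Atp5s, the coupling factor B, was scarce, at 7.14 FPKM (LTsc1KO) and 4.39 FPKM (WT).

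The 13 protein genes of mitochondrial DNA took more reads than the nuclear members in both libraries. Together they took 5.96% of reads in LTsc1KO (95% exact binomial interval 5.95 to 5.97) and 7.44% in WT (7.43 to 7.45), against 1.57% (LTsc1KO) and 1.43% (WT) for the 88 nuclear members. The mitochondrial share in LTsc1KO was thus 0.801 times that of WT, or 0.748 times without mt-Nd5, and the nuclear share 1.10 times. The bearing of nuclear copies, described next, on these shares was not tested. The median log2 ratio was -0.29 over the 13 genes and 0.09 over the 82 expressed nuclear members.

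Many of these genes have near-perfect copies in nuclear DNA, and the genes with the fewest windows of their own had low FPKM in both libraries. Windows of 36 bases, a length chosen here because the read length was not given, were compared with all other annotated transcripts. A run of 7 pseudogenes on chromosome 1, between Gm28439 (chr1:24611535-24612410) and Gm29216 (chr1:24615706-24616197), matched mt-Co1, mt-Co2, mt-Atp6, mt-Co3, mt-Nd3, mt-Nd4l and mt-Nd4 at 98.8% to 100% identity over the aligned part. Other copies lie on chromosome 2, where Gm13340 shared the most windows with mt-Co1 (592) and Gm13339 the most with mt-Nd2 (111). The first 80 bases of mt-Co3 and of its copy Gm28437 (chr1:24613189-24613971, minus strand), and of mt-Nd3 and its copy Gm28438 (chr1:24612775-24613119, minus strand), show how little separates them. They are from GENCODE M21 transcripts on GRCm38. The capital marks the only mismatch of mt-Nd3 in the 345 aligned bases (T3C, counted from the transcript's first base, mitochondrial base first), and mt-Co3 has none in 783.
mt-Co3: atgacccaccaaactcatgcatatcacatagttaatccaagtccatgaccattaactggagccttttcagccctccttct
Gm28437: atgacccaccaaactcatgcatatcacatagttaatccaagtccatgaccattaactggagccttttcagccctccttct
mt-Nd3: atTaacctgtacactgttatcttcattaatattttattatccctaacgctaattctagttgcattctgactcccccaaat
Gm28438: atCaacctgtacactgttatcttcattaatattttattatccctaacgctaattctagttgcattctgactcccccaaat

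The 5 genes whose windows were shared at 98.1% or more had low FPKM. mt-Co3, a core subunit of complex IV, was at 14.5 FPKM in LTsc1KO and 16.5 FPKM in WT, while mt-Co1, the oxidase's catalytic subunit from the same strand of the same genome, was at 13076 FPKM (LTsc1KO) and 18432 FPKM (WT). mt-Co2, which receives electrons from cytochrome c, was at 33.2 FPKM (LTsc1KO) and 71.3 FPKM (WT), and mt-Atp6, the proton channel subunit, at 43.8 FPKM (LTsc1KO) and 111 FPKM (WT). mt-Nd4l, a small membrane subunit of complex I, was at 3.44 FPKM (LTsc1KO) and 1.93 FPKM (WT), from 30 reads (LTsc1KO) and 16 reads (WT). mt-Nd3, with 98.1% shared windows, was at 254 FPKM (LTsc1KO) and 581 FPKM (WT). Those low values come with the lack of unique sequence, and how reads that match several places were treated was not given in the sources used here.

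So 3 of the 5 members that were at least 2-fold lower, mt-Co2, mt-Atp6 and mt-Nd3, are genes with few windows of their own. Their copies did not share one direction. Gm28661, the copy of mt-Co2, was at 11.9 FPKM (LTsc1KO) and 21.6 FPKM (WT), and Gm10925, the copy of mt-Atp6, at 12.1 FPKM (LTsc1KO) and 1.90 FPKM (WT). With reads of gene and copy added, the ratio was 0.486 for mt-Co2, 0.494 for mt-Atp6 and 0.439 for mt-Nd3. Without the members of which 50% or more of the windows are shared, Uqcrh and Cox6b1 were the 2 members at least 2-fold lower. The median log2 ratio of the mitochondrial genes was then 0.04 over 6 genes. That median depends on mt-Atp8 (log2 ratio 0.79), which was kept although only annotated transcripts were searched for copies.

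Among the 6 genes that are mostly unique, values lay on both sides of 0. mt-Nd1, in the membrane arm of complex I where coenzyme Q enters, was at 7221 FPKM in LTsc1KO and 11828 FPKM in WT, a ratio of 0.610 (interval 0.607 to 0.614). mt-Nd2 was at 6160 FPKM (LTsc1KO) and 7484 FPKM (WT), and mt-Cytb, the catalytic cytochrome b of complex III, at 10758 FPKM (LTsc1KO) and 13157 FPKM (WT), a ratio of 0.818. mt-Nd5, one of the proton-pumping subunits, was higher, at 3169 FPKM (LTsc1KO) and 1344 FPKM (WT), a ratio of 2.36 (interval 2.34 to 2.38). Its neighbour mt-Nd6, the only one of the 13 on the other strand, was at 3710 FPKM (LTsc1KO) and 2884 FPKM (WT), a ratio of 1.29. The ends of mt-Nd5 (chrM:11742-13565) and mt-Nd6 (chrM:13552-14070) overlap, and whether reads were counted by strand was not given in the sources used here. mt-Atp8, whose place has no annotated transcript among the chromosome 1 copies, was at 54.6 FPKM (LTsc1KO) and 31.1 FPKM (WT), far under the rest of this group. It lies between mt-Co2 and mt-Atp6, which both have copies there, so its low shared percentage does not show that its sequence is unique.

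Of the partly shared pair, mt-Nd4 was at 4284 FPKM in LTsc1KO and 5428 FPKM in WT, with 62.6% of its windows shared, and mt-Co1 had 59.7% shared. Over the 13 genes the shared percentage and FPKM had a Spearman correlation of -0.703 in LTsc1KO and -0.615 in WT, a description over genes that share their libraries. The mitochondrial genes were therefore not ranked by FPKM.

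**Figure D3:**
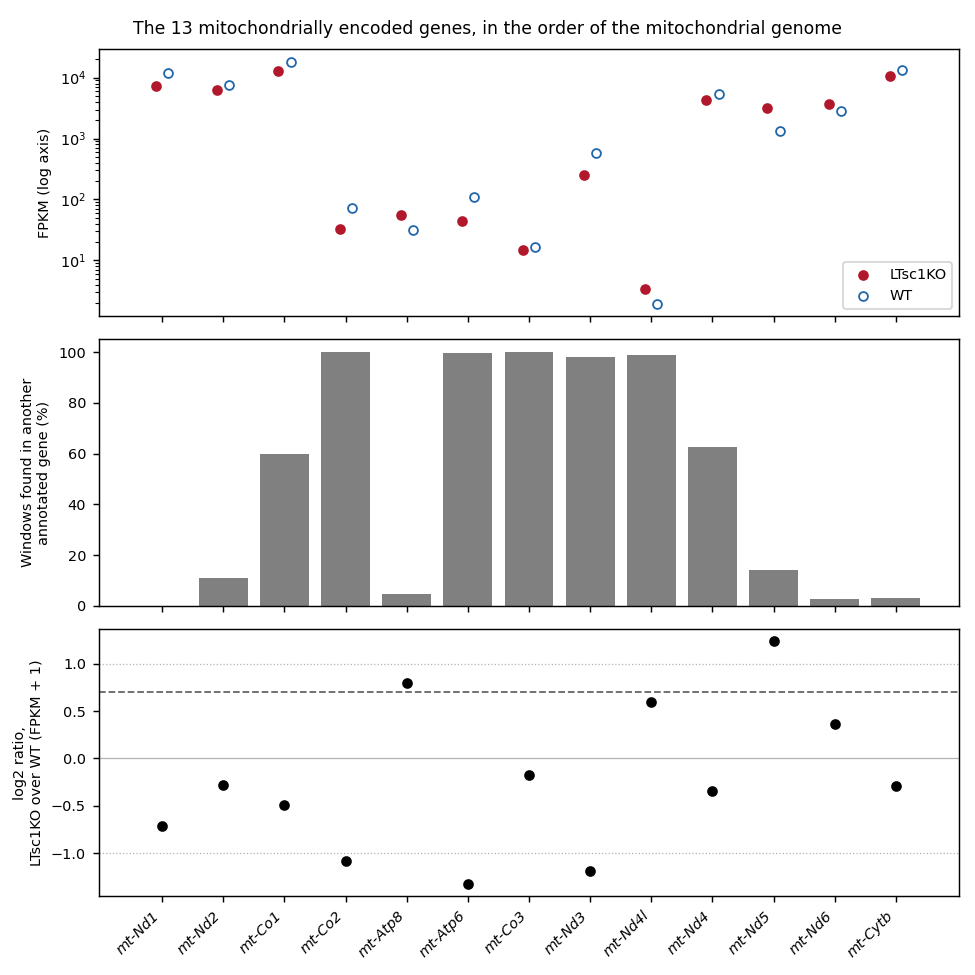
The 13 mitochondrially encoded genes in genome order: FPKM (log axis) in LTsc1KO (filled) and WT (open), the percentage of 36-base windows found in another annotated gene, and the log2 ratio of LTsc1KO over WT (dashed line 0.70, the all-gene median; dotted lines 2-fold). The 5 genes with tall bars of 98.1% or more lie at 581 FPKM or less in both libraries, and mt-Nd5 has the highest ratio.

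Assembly factors of complexes I, III and IV and of the ATP synthase had higher medians than the subunits, while those of complex II had a lower one. The 16 expressed complex I assembly factors had a median log2 ratio of 0.66, against 0.08 for the nuclear subunits of complex I. The 2-fold limit was passed upward by 4 of the 16 and downward by 0, beside backgrounds of 35.6% and 6.15% of expressed genes, so the higher side was under its background. Acad9, an assembly factor that is also an acyl-CoA dehydrogenase, was at 69.2 FPKM in LTsc1KO and 23.0 FPKM in WT (log2 ratio 1.55), and Ndufaf7, a methyltransferase, had a log2 ratio of 1.08. At the low end Ndufaf3 had a log2 ratio of -0.23 and Ndufaf8 one of -0.12. The median of the list is close to the 0.70 of all expressed genes. All 16 were at 69.2 FPKM or less in both libraries, levels at which other genes also had higher ratios than the most abundant genes did.

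For complex IV the 20 expressed assembly and copper delivery factors had a median of 0.66, with 6 at least 2-fold higher (background 35.6%) and 0 lower (background 6.15%), also a share near or under that of all genes. Cox15, which makes heme a for the oxidase, was at 20.8 FPKM (LTsc1KO) and 7.08 FPKM (WT), and Cox11, which delivers copper, at 8.49 FPKM (LTsc1KO) and 2.69 FPKM (WT). Cmc2 (log2 ratio 0.00) and Coa6 (-0.26) were lowest. Complex III factors had a median of 0.57 over 7 genes. Uqcc1 (0.82) and Uqcc2 (0.78), which support cytochrome b synthesis, were highest, Ttc19 (0.18) and Uqcc3 (-1.37) lowest, and Uqcc3 was at 17.1 FPKM (LTsc1KO) and 45.8 FPKM (WT). The 4 complex II factors had a median of 0.27, from Sdhaf3 (0.71) and Sdhaf2 (0.29) to Sdhaf4 (0.26) and Sdhaf1 (-0.95).

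The ATP synthase list of 5 had a median of 0.76. Atpif1, the inhibitor that stops the enzyme from running backwards, was at 50.4 FPKM in LTsc1KO and 8.10 FPKM in WT, a log2 ratio of 2.50, above that of every subunit. Tmem70, which helps assemble the c ring, was at 48.3 FPKM (LTsc1KO) and 24.8 FPKM (WT). Atpaf1 had a log2 ratio of 0.73, and Fmc1 was lowest at -0.67.

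Around the chain, coenzyme Q synthesis had a median of 0.38 over 13 genes, with 2 at least 2-fold higher (background 35.6%). Pdss1, which makes the side chain of coenzyme Q, was at 8.32 FPKM (LTsc1KO) and 2.05 FPKM (WT), and Coq2, which attaches it, at 84.9 FPKM (LTsc1KO) and 34.5 FPKM (WT). Coq10a (-0.30) and Coq10b (-0.35) had the lowest log2 ratios. Genes of mitochondrial DNA replication and transcription had a median of 0.58 over 15, from Mgme1 (1.30) and Tfb1m (1.18) to Mterf3 (-0.12) and Mterf1a (-0.44). Import and mass markers had a median of 0.48 over 17, from the cristae protein Immt (1.56) and the chaperone Hspa9 (1.41) to Vdac2 (0.13) and Tomm40 (-0.41). The 7 supercomplex and cristae genes had a median of 0.66, with Chchd6 (1.69) highest and Higd1a (0.07) and Higd2a (-0.10) lowest.

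**Figure D4:**
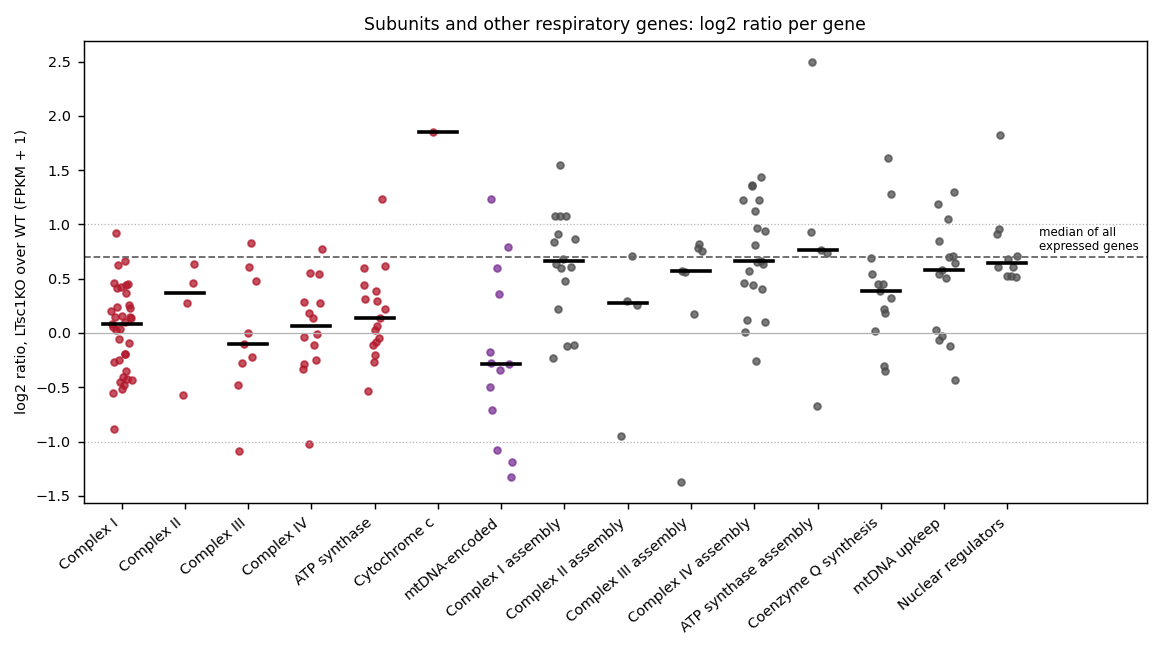
Log2 ratio (LTsc1KO over WT, FPKM + 1), 1 point per expressed gene, with the median of each group as a bar; nuclear subunits by complex at the left, mitochondrially encoded subunits next, and assembly, coenzyme Q, mitochondrial DNA and regulator genes at the right. Subunit medians apart from Cycs lie well under the dashed all-gene median of 0.70, while the assembly factor medians of complexes I, III and IV lie between 0.57 and 0.66.

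The order of abundance was much the same in both libraries. Over 79 nuclear members at 1 FPKM or more in both, pseudogenes left out, log2 FPKM in LTsc1KO and WT had a Pearson correlation of 0.94 and FPKM a Spearman correlation of 0.874, a description over genes. Annotated length had little relation to the log2 ratio, with a Spearman correlation of 0.109 over these genes and 0.118 over 10029 genes. Yet short genes as a whole had lower ratios than long ones, and many subunits are short. For lengths over 500 and up to 700 bases, which hold the most members, the median was 0.14 for 27 members and 0.23 for 396 genes. For lengths over 700 and up to 1000 bases the median was 0.11 for 24 members and 0.48 for 1284 genes. For lengths over 1000 and up to 5000 bases it was 0.29 for 19 members and 0.68 for 8013 genes. For lengths up to 500 bases it was -0.04 for 9 members and -0.18 for 147 genes.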

How the data were processed

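Liver RNA was sequenced as 1 library per genotype, from flash-frozen tissue with a column kit and Illumina library preparation, per the labels' protocols. The authors deposited FPKM, 1 column per library. The submitters' processing notes list the build mm8 and the programs Bowtie 0.12.2 and CASAVA 1.7 without a role. The counting tool, annotation, strand setting and treatment of reads matching several places were not given in the sources used here.

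Of 35275 Ensembl IDs, 34490 (97.8%) matched a GENCODE M21 symbol, and values of IDs with the same symbol were summed. Library totals and whole reads were recovered from the FPKM with Python 3.11.15, numpy 2.4.6, pandas 2.3.3 and scipy 1.17.1, as whole multiples within 0.001 reads. Reads came out whole for 96 members, 54 at the rounded mean annotated length and 42 at the nearest other length that gave whole reads, and 5 members were at 0. At another length the ratio of reads is set by the FPKM, but the reads themselves, and so the width of an interval, could be off by a whole factor. The recovery was tested on simulated data. Intervals are exact binomial (Clopper-Pearson, 95%) on reads and cover counting error only, since reads are not independent molecules. A pseudocount of 1 understates ratios of low genes.

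With 1 library per genotype no test was run. Lists are described by counts and medians beside all expressed genes. Members and lists were chosen with earlier results of these data known. Named were the catalytic and core subunits, the 3 highest and 3 lowest ratios of each complex, alternative forms and the 2 highest and 2 lowest of the other lists; further genes were named after their values were seen, and 2 genes are not reported here by name. Coa1 was not in the table, and Cox20, Sco2, Pet117 and Mterf1b were under 1 FPKM in both libraries. Alternatives changed the pseudocount, the filter, the scale, repeated symbols and shared sequence.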

Additional observations from a re-analysis of the deposited data

How the results depend on the processing

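The scale of the libraries decided direction. With equal FPKM totals the median log2 ratio of the members was 0.22, with 5 members at least 2-fold higher (42.4% of expressed genes) and 2 lower (5.32%); medians were 0.23 (complex I), 0.55 (II), 0.0169 (III), 0.143 (IV, against -0.04 as deposited), 0.32 (ATP synthase), 0.25 (nuclear) and -0.11 (mitochondrial). With the median ratio of genes set to 0 the members' median was -0.63, with 1 higher (15.6%) and 21 lower (12.7%); medians were -0.60 (I), -0.34 (II), -0.87 (III), -0.72 (IV), -0.57 (ATP synthase), -0.57 (nuclear) and -1.01 (mitochondrial). With upper quartile scaling the median was -0.79, with 0 higher (12.9%) and 32 lower (15.1%); medians were -0.76 (I), -0.50 (II), -1.03 (III), -0.88 (IV), -0.74 (ATP synthase), -0.73 (nuclear) and -1.17 (mitochondrial). The log2 ratio changed sign for 10, 43 and 46 of the 95 members under these 3 scalings. Each scaling multiplies the LTsc1KO values by 1 factor, which by construction moves the ratios. The added 1 FPKM and the filter came after the scaling, so low genes moved less than others. The members' median minus the all-gene median was -0.64 as deposited and -0.62, -0.70 and -0.71 under the 3 scalings.

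Below the all-gene median lay 87 or 88 members under each scaling, 76 with a pseudocount of 5, and 45 with no filter, where the all-gene median is 0. A 1.5-fold limit gave 14 higher (55.6% of expressed genes) and 7 lower (10.2%). Without the members of which 50% or more of the windows are shared, an alternative chosen after seeing the data, 2 were lower and the mitochondrial median was 0.0411. The genes kept there include mt-Atp8, whose copies may lie outside annotated transcripts. No paired analysis was possible because there is 1 library per genotype, and for the same reason none could be left out. Depth limits Ndufa4l2, Cox6b2, Cox4i2, Ndufb4c and mt-Nd4l, which had 39 reads or fewer in each library.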
